A study of Mus musculus with 8 samples.

Results

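The tissue kallikreins of the mouse are secreted serine proteases encoded by Klk1 and by the Klk1b genes, near-copies of Klk1 that lie beside it on chromosome 7. The 10 members described here (Klk1, Klk1b3, Klk1b4, Klk1b5, Klk1b8, Klk1b9, Klk1b11, Klk1b21, Klk1b22 and Klk1b24) were set by name and found on the array through the RefSeq accession of their probes, out of 20128 genes with a named probe. Each member had 1 probe. The Klk1b genes Klk1b1, Klk1b16, Klk1b26 and Klk1b27 also have probes but are not members. The family was chosen by its readings in the same samples: 3 of its probes (Klk1b3, Klk1b4 and Klk1b24) were lower in mutant than in wild type skin. Values of members against wild type are therefore given as a description, with no test.

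The 8 samples were sections of skin from C57BL/6N mice. Hair loss skin of Cchcr1 mutants had 2 samples, normal skin of Cchcr1 mutants had 4, and normal skin of wild type mice had 2. The mutants were made by genome editing of Cchcr1, which encodes a coiled-coil protein, as a model of patchy hair loss. Sample titles begin with Mutant097 (hair loss replicate 1, mutant normal skin replicates 1 and 2), Mutant113 (hair loss replicate 2, mutant normal skin replicates 3 and 4) or Wild001 (both wild type samples). What these numbers mark is not stated. If a number marks an animal, samples that share it are not independent, and the p-values below measure only the spread between these samples. Ages and the edited allele of each mouse are not given in the labels.

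Klk1 releases kinins, short peptides that widen vessels and act in inflammation and pain, from kininogen. In rodents the Klk1b copies took on other substrates. Several are known from the submandibular gland, where they are abundant, are more active in males, and bind or process growth factors. Klk1b3 is a protease that cleaves a growth factor precursor, and Klk1b4 has lost protease activity. Klk1b9 and Klk1b22 are known as epidermal growth factor-binding proteins.

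The genes resemble each other at their starts as well as in their coding parts. Windows of 250 bases before to 50 after the annotated start site, from RefSeq on GRCm38.p6, were compared for all 10 members (all matched, all on the plus strand of chromosome 7). Aligned positions were identical at 76.3% to 97.7% over the 45 pairs, with a median of 83.1%. The stretches below are shown because they share TTTAAA, written in capitals at their ends, in 4 members with large differences from wild type (Klk1b3, Klk1b4, Klk1b5 and Klk1b24), in Klk1b21, whose difference was small, and in Klk1b9, whose probe stayed at background. Each runs for 70 bases.
Klk1b24, chr7:44188141-44188210: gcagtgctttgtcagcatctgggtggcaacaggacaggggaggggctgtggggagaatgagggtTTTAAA
Klk1b21, chr7:44102232-44102301: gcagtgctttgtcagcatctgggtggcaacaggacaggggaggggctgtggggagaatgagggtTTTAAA
Klk1b3, chr7:44198114-44198183: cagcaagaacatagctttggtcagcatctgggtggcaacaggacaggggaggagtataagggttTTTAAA
Klk1b4, chr7:44207321-44207390: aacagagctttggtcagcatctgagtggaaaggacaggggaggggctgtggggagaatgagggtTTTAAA
Klk1b5, chr7:44216368-44216437: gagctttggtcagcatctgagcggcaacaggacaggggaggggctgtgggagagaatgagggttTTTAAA
Klk1b9, chr7:43975964-43976033: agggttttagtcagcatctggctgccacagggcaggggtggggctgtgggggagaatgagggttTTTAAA

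The Klk1b24 and Klk1b21 stretches differed at 0 of 70 bases. Over the whole of their windows they were identical at 97.7% of 265 aligned positions, the closest pair of the family, and Klk1b4 and Klk1b5 followed at 91.6% of 298. TTTAAA, which reads the same on both strands, was present in the windows of 9 of 10 members, against 13.2% of 32851 mouse windows of 300 bases. Counted to its first letter, it lay 31 bases before the annotated start in Klk1b24, 33 in Klk1b9, 42 in Klk1b5, 48 in Klk1b4 and 13 in Klk1b3, and past the start in Klk1b21. Between 40 and 20 bases before the start, around the usual place of a TATA box, it was in 4 of 10 members and in 1.18% of all windows. Klk1 had none in its window and is not shown: its window, lined up with that of Klk1b5, ended at base 207, short of base 209, where TTTAAA begins in Klk1b5. TATAAA, searched on both strands, was in 0 of 10 member windows and in 13.6% of all windows. TGTTCT, a hexamer that the glucocorticoid receptor binds, was found on either strand in 2 of 10 (Klk1b3 and Klk1b24) and in 19% of all windows. These are matches of letters only.

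**Figure D1:**
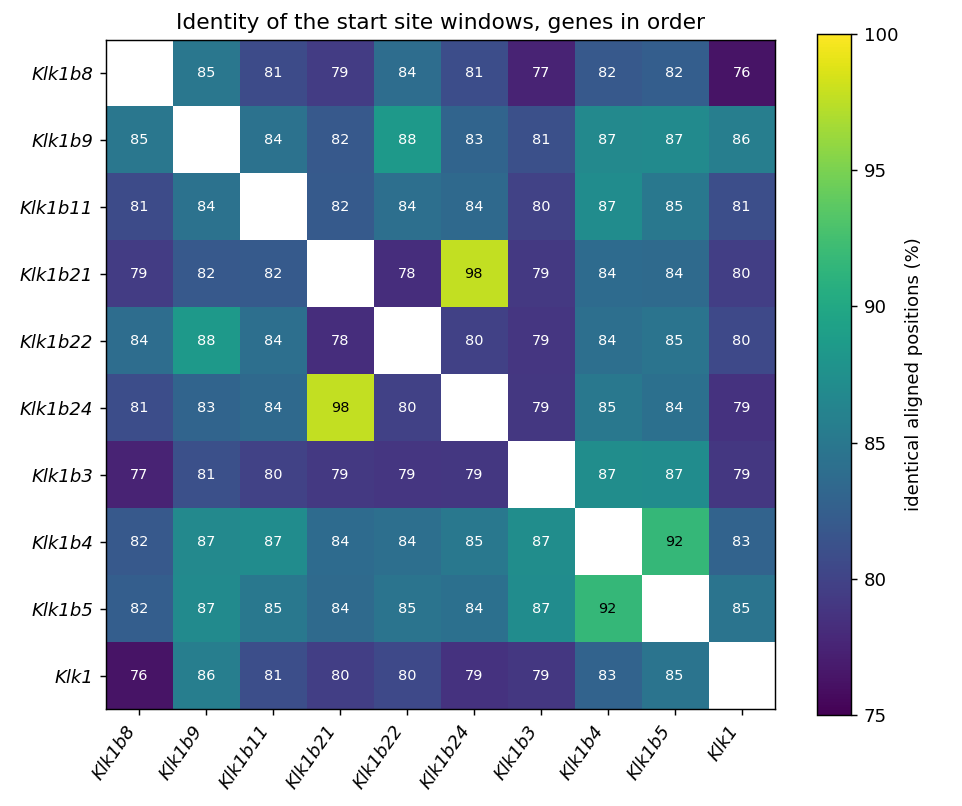
Identity between the start site windows of the 10 members, in percent of aligned positions, with genes in their order along the chromosome. The Klk1b21 and Klk1b24 cell stands at 97.7%, and Klk1 and Klk1b8 form the least similar pair at 76.3%.

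The arrays were Agilent single-colour arrays. Values below are log2 of the background-corrected intensity minus the 75th percentile of that array, so that 0 is a probe at the 75th percentile and dimmer probes are negative. The 75th percentile ran from an intensity of 83.1 (wild type replicate 1) to 211 (hair loss replicate 2), and 25421 to 30205 probes per array were marked well above background. Because the level at which a probe can be told from background is set by the scanner, it lay highest on the dim array of wild type replicate 1 and lowest, at -4.41, on that of hair loss replicate 2. Cchcr1 itself lay between -0.07 and -0.03 in wild type and between -0.04 and 0.32 in mutant normal skin (difference 0.17, SE 0.20, limma adjusted p = 0.69). Its probe does not tell an edited allele from an unedited one, so it does not check the labels. Of the members, 2 were well above background on every array (Klk1b3 and Klk1b21) and 2 on none (Klk1b9 and Klk1b11). In wild type skin 7 of 10 were well above background on both arrays, in mutant normal skin 2 of 10 on all 4, and in hair loss skin 4 of 10 on both. Probes well above background on at least 2 of the 8 arrays were tested, which kept 8 of the 10 members. Klk1b24 passed only through the wild type arrays. Klk1b4 was above background on both wild type arrays and 1 hair loss array, and would not have passed without the wild type arrays.

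Klk1 was much dimmer in every mutant sample than in wild type skin. Its values were -1.08 and -1.04 in wild type, -3.15, -3.32, -5.37 and -4.91 in mutant normal skin, then -4.31 and -4.42 in hair loss skin. The wild type samples lay at least 2.07 above the highest mutant normal skin sample, and the 4 mutant normal skin samples fell into the 2 title numbers, with both Mutant113 samples and both hair loss samples not well above background. In intensity these were 39.4 and 78.0 in wild type and 4.17 to 18.2 in mutant normal skin. The mutant normal skin mean was 8.74-fold lower than wild type (log2 difference -3.13), and hair loss skin was at least 6.98-fold lower. Where a probe was not well above background on any array of the dimmer group, the fold is a bound: the mean of the brighter group against the lowest level at which any probe was well above background on each dimmer array, or the level of the probe itself where higher.

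Among the members, the 4 Klk1b genes with the largest differences lie next to Klk1 on the chromosome. Klk1b5, a glandular kallikrein, read 0.17 and -0.01 in wild type, -2.06, -2.69, -4.14 and -4.39 in mutant normal skin, then -2.04 and -3.87 in hair loss skin. It was 10.5-fold lower in mutant normal skin and 8.18-fold lower in hair loss skin, and as for Klk1 the Mutant113 samples were the lowest. In mutant normal skin 2 of 4 arrays had Klk1b5 well above background, so that the 10.5-fold rests in part on values at background. Klk1b3 read -0.50 and -1.10 in wild type, -2.96, -3.09, -3.65 and -3.91 in mutant normal skin, then -2.91 and -3.36 in hair loss skin. As no array had it at background, its differences rest on measured signal throughout: 6.07-fold lower in mutant normal skin and 5.05-fold lower in hair loss skin. Klk1b4 read -2.29 and -2.33 in wild type, -4.77, -4.11, -5.27 and -4.54 in mutant normal skin, then -3.89 and -4.19 in hair loss skin. The 4 mutant normal skin samples were not well above background for Klk1b4, which makes the difference at least 3.05-fold, and hair loss skin was 3.32-fold lower with 1 of 2 arrays above background. Klk1b24, a further glandular kallikrein, read -1.54 and -1.69 in wild type, -4.08, -3.53, -4.32 and -5.02 in mutant normal skin, then -3.74 and -4.69 in hair loss skin. It was well above background in wild type skin alone, and was lower by at least 4.94-fold in mutant normal skin and by at least 4.74-fold in hair loss skin. Skin is a mixture of cells, and fewer cells that express these genes cannot be told apart from less RNA per cell.

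The remaining measured members were closer to wild type. Klk1b8 read -1.92 and -2.15 in wild type, -3.03, -3.48, -2.99 and -4.05 in mutant normal skin, then -2.39 and -3.21 in hair loss skin. Its groups did not overlap with wild type, with a 2.56-fold lower mean in mutant normal skin and a 1.70-fold lower mean in hair loss skin. In mutant normal skin 2 of 4 arrays had it well above background. Klk1b22 read -2.89 and -3.49 in wild type, -4.71, -4.56, -4.04 and -3.36 in mutant normal skin, then -3.30 and -3.51 in hair loss skin, with 3 of 8 arrays well above background. Its groups overlapped, and its difference of -0.21 in hair loss skin turned to 0.082 without wild type replicate 1. It was 0.72 with slide row as a block. Row goes with title number in mutant normal skin, so that 0.72 also holds the difference between the mutant title numbers. Klk1b21 read -1.59 and -2.09 in wild type, -2.41, -1.99, -2.20 and -2.30 in mutant normal skin, then -1.87 and -2.94 in hair loss skin. It was well above background everywhere, its groups overlapped, and its means were 1.30-fold and 1.47-fold lower in mutant normal skin and hair loss skin. Its highest value was on the dimmest array and its lowest on the brightest. The part of array brightness in this order was not tested. Klk1b9 and Klk1b11 stayed at background: the Klk1b11 probe was printed on 10 spots per array, 0 of which were well above background on any array, with intensities between 1.98 and 6.41.

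**Figure D2:**
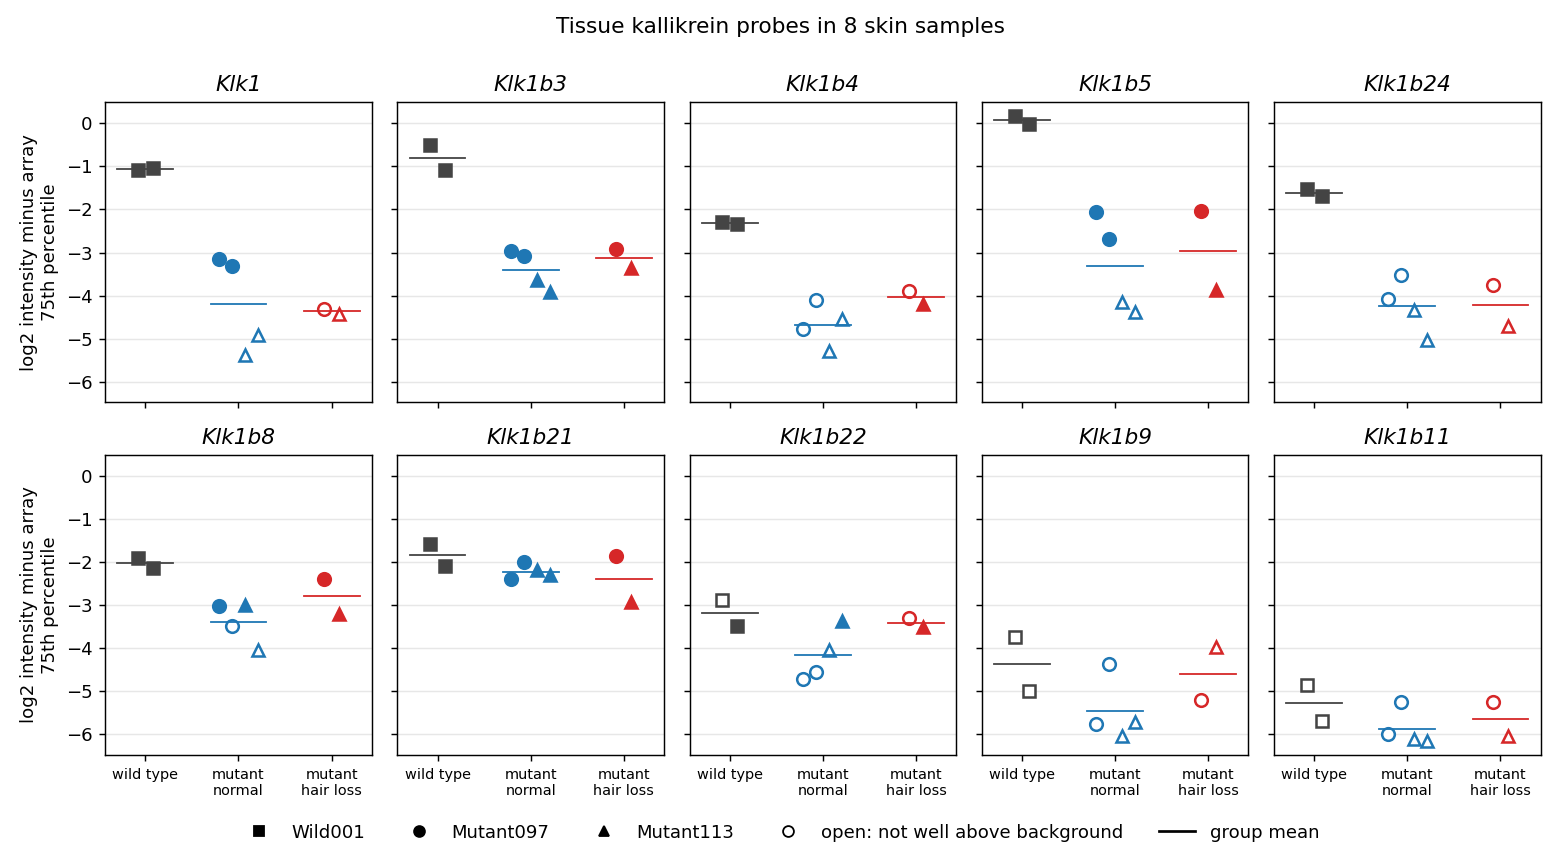
Log2 intensity minus the 75th percentile of the array for the 10 member probes in the 8 samples, by group, with the title number as the symbol, the group mean as a line and open symbols for probes not well above background. Klk1, Klk1b3, Klk1b4, Klk1b5 and Klk1b24 stand well apart in wild type skin, Klk1b21 lies between -1.59 and -2.94 in every group, and Klk1b9 and Klk1b11 are open throughout.

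Of the 8 tested members, 6 had every mutant normal skin sample below both wild type samples, as did 14.8% of all tested probes. The same 6 (Klk1, Klk1b3, Klk1b4, Klk1b5, Klk1b8 and Klk1b24) lay below wild type in both hair loss samples, as did 28.5% of all tested probes. These comparisons share the wild type arrays. The limma fit called 0.118% of tested probes lower in mutant normal skin (adjusted p under 0.05), among them the 3 members by which the family was chosen. Nothing is read from these counts, because the members were chosen on this contrast. In addition, Klk1b24 entered through the wild type arrays alone and Klk1b4 would not have passed without them. Klk1 and Klk1b5 were not among the called probes and had larger differences than the 3 called. Their standard errors were 0.62 and 0.75, beside 0.31 to 0.42 for the 3 called. Over all 10 members, which include the 2 at background, the median difference was -1.86 in mutant normal skin and -1.25 in hair loss skin. Over the 8 tested members it was -2.48 and -2.03, beside -0.04 and -0.06 over all tested probes. As the members were chosen on readings against these wild type arrays, nothing is read from these medians either. Over the whole array, 211 probes were called in mutant normal skin and 432 in hair loss skin. Without wild type replicate 1 these counts were 10 and 10, and without wild type replicate 2 they were 0 and 0, so that the calls lean on both samples.

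In RefSeq's gene order, Klk1b24, Klk1b3, Klk1b4, Klk1b5 and Klk1 follow each other at the end of the cluster, with no other coding gene or pseudogene between them. These 5 had the 5 largest differences among the members, from -2.36 to -3.40. This run was picked out after the values were seen. The next gene beyond Klk1 with a probe above background, 2410002F23Rik, read 1.32 in wild type and 1.20 in mutant normal skin (limma adjusted p = 0.79). The other members lie upstream, between Klk15 and Klk1b24. Klk1b26, a growth factor-binding kallikrein which is not among the members and lies outside the run, between Klk1b11 and Klk1b21, read -0.60 and -0.85 in wild type, -3.07, -3.51, -4.71 and -5.16 in mutant normal skin, then -2.76 and -4.05 in hair loss skin. Its mutant normal skin mean was 10.5-fold lower (limma adjusted p = 0.067), with 1 of 4 of those arrays well above background, and a second Klk1b26 probe stayed at background on all arrays. Klk1b1 was above background on wild type replicate 2 alone, and Klk1b16 and Klk1b27 were on none.

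**Figure D3:**
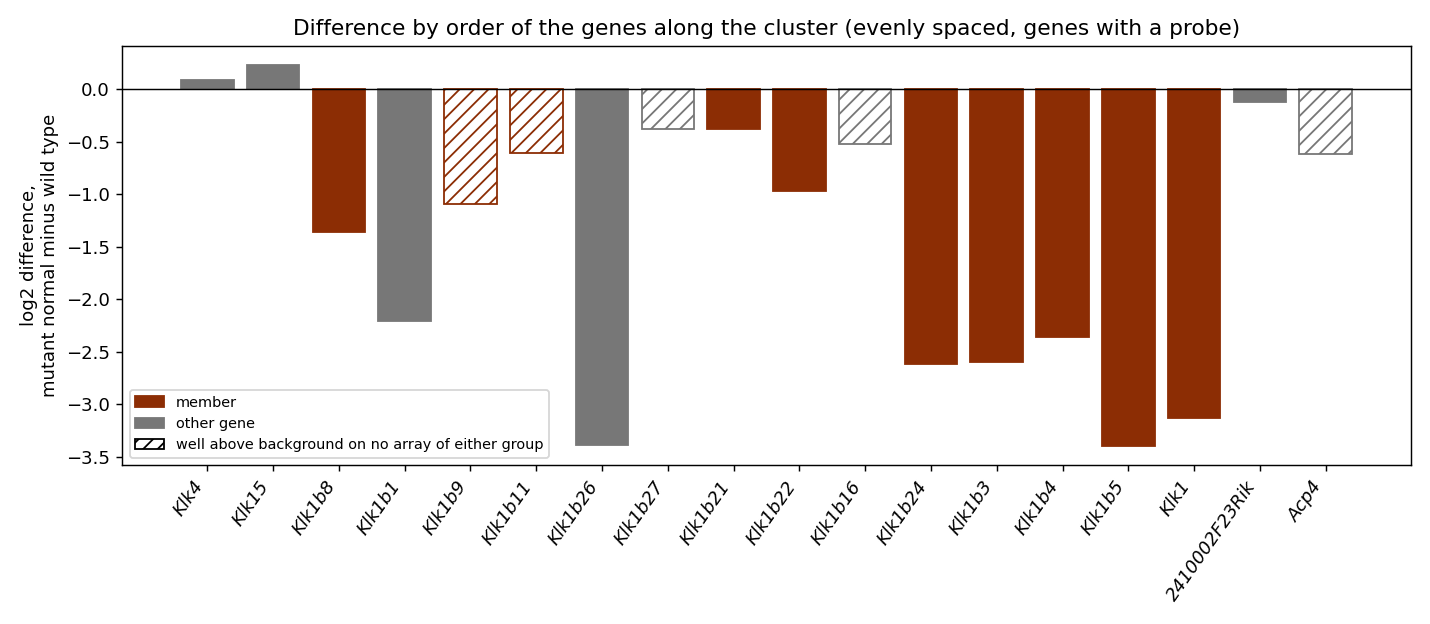
Log2 difference between mutant normal skin and wild type for the kallikrein genes with a probe and 2 flanking genes, evenly spaced in their order on the chromosome. Brown bars are members, grey bars other genes, and hatched bars probes well above background on no array of either group. The 5 members at the right end of the cluster reach -2.36 to -3.40 and Klk1b26 in its middle -3.39, whereas Klk1b21 stands at -0.38.

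The pair with the most similar start regions had unlike readings. Klk1b24 and Klk1b21, whose stretches printed above are the same, were lower in mutant normal skin by at least 4.94-fold and by 1.30-fold. Klk1b4 and Klk1b5, also close relatives, were lower by at least 3.05-fold and by 10.5-fold. The sequences of the array probes were not used here, and whether a probe also captures RNA of a near-copy was not tested, so that each value is the reading of a probe and not with certainty that of 1 gene. Across the 8 arrays the pairwise Pearson correlations among Klk1, Klk1b3, Klk1b4, Klk1b5 and Klk1b24 ran from 0.877 to 0.973. Those of Klk1b21 with these 5 ran from 0.483 to 0.676, and those of Klk1b22 from 0.221 to 0.593. The points share arrays and the wild type contrast, and these values are descriptive.

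No member separated hair loss skin from mutant normal skin. The limma fit called 0 of 8 tested members and 0% of all tested probes, and at an unadjusted p under 0.05 it picked 0 of 8 members against 5.2% of all probes. Of the 8, 6 had a higher mean in hair loss skin and 2 a lower one, and 0 of 8 had groups that did not overlap (6.68% of all probes did so downward and 5.73% upward). The differences ran from -0.18 for Klk1 (SE 0.62) to 0.76 for Klk1b22 (SE 0.38, adjusted p = 0.99), with a median of 0.32 beside -0.01 over all tested probes. Klk1b4 followed with 0.63 (SE 0.31, adjusted p = 0.98). Klk1 was not well above background on either hair loss array and Klk1b24 on no array of either group. The standard errors of 0.31 to 0.75 on the log2 scale limit what could be detected. This fit did not pair samples by title number, so that these errors also hold differences between the numbers. Within Mutant097 and Mutant113 the differences were -1.08 and 0.72 for Klk1, and 0.33 and 0.40 for Klk1b5. Each rests on a lone hair loss sample.

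Readings also differed between the 2 mutant title numbers. In normal skin, Klk1 was lower in Mutant113 than in Mutant097 by a log2 difference of -1.90 (SE 0.22, limma adjusted p = 0.058, at least 1.88-fold). Klk1b5 differed by -1.89 (SE 0.26, adjusted p = 0.075, at least 3.38-fold), with both Mutant097 samples well above background and neither Mutant113 sample. Klk1b3, well above background on all 4 arrays, differed by -0.75 (SE 0.25, adjusted p = 0.26). Klk1b4 and Klk1b24 were at background in both numbers and Klk1b22 above it on 1 of the 4 arrays, so that no size is given for them. None of the 8 tested members was called, beside 0.266% of all tested probes. At an unadjusted p under 0.05 there were 5 of 8, beside 15.8%, and in 4 of 8 both Mutant113 samples lay below both Mutant097 samples, beside 31.9% of all probes. Both counts include Klk1b24, which was at background. The first also includes Klk1b22, which had the higher mean in Mutant113, unlike the others counted. Klk1b26 was lower by at least 1.80-fold (adjusted p = 0.084), with 1 of 2 Mutant097 arrays above background.

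Every mutant sample of either number remained below wild type for the genes of the Klk1 end of the cluster. The mean of the Mutant097 normal skin samples lay below the wild type mean by a log2 difference of -2.18 for Klk1, -2.45 for Klk1b5, -2.22 for Klk1b3, -2.13 for Klk1b4 and -2.19 for Klk1b24. In Mutant113 the same differences were -4.08, -4.34, -2.98, -2.60 and -3.05. Of these 5, Klk1b4 and Klk1b24 were not well above background in the normal skin of either number, nor were Klk1 and Klk1b5 in that of Mutant113, so that their values there are limited by the background. Klk1b3 was above it throughout. The hair loss sample of each number was on the same side: -3.26 for Klk1 and -2.12 for Klk1b5 in Mutant097, and -3.36 and -3.95 in Mutant113.

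**Figure D4:**
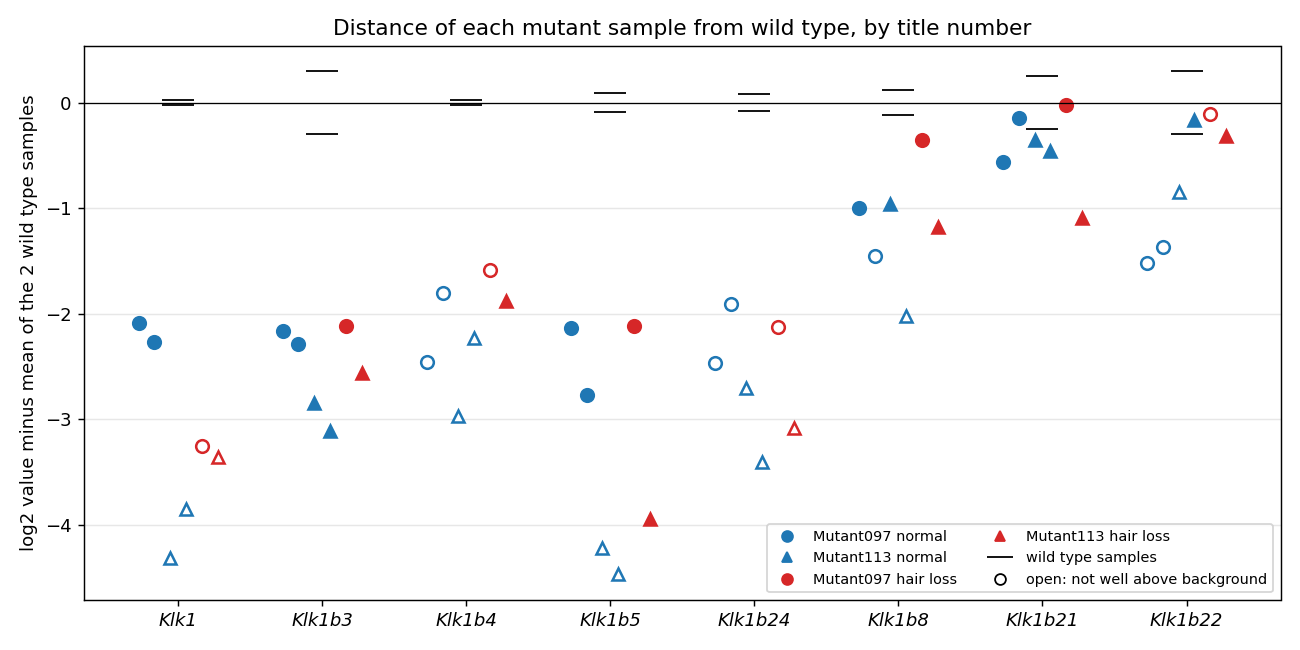
Log2 value of each mutant sample minus the mean of the 2 wild type samples, for the 8 tested members. Circles are Mutant097 and triangles Mutant113, blue is normal and red hair loss skin, open symbols are not well above background, and black ticks are the wild type samples. The blue circles of Klk1 and Klk1b5 stand near -2.18 and -2.45 and the blue triangles near -4.08 and -4.34.

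The title numbers also differed in sex-linked transcripts. Xist, the RNA that silences an X chromosome in female cells, was well above background in the 3 Mutant113 samples (1.09 to 1.15) and in no other. The Y-linked genes Ddx3y and Eif2s3y were well above background in the wild type and Mutant097 samples (Ddx3y 1.20 to 1.52) and in no Mutant113 sample, with Ddx3y at least 46.2-fold lower in Mutant113 than in Mutant097 normal skin (limma adjusted p = 7.4e-04). The part of sex in the difference between Mutant097 and Mutant113 was not tested, because it goes with the title number and, in mutant normal skin, with the row of the slide. Its part in the comparisons with wild type was not tested either. Both mutant groups pool the 2 numbers there, and Mutant097 alone was set against wild type only as an alternative, given below. Mutant097 normal skin, like wild type in these transcripts, differed from it by -2.18 for Klk1 and -2.45 for Klk1b5. Over all mutant normal skin samples these were -3.13 and -3.40. Klk1b22 went the other way (-1.44 beside -0.97).

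Whether the change from normal to hair loss skin differed between the numbers was tested with an interaction term. It called 0 of 8 members (0% of all tested probes) and 1 of 8 at an unadjusted p under 0.05 (9.5% of all). That 1 was Klk1 (difference between the numbers 1.80, SE 0.37, adjusted p = 0.24), which among the mutant samples was well above background only in Mutant097 normal skin, so that the size of this difference is not a measured one. The letters A and B of the titles, compared within each number in normal skin, gave 0 of 8 called (0% of all) and 1 at an unadjusted p under 0.05 (5.01% of all), Klk1b8.

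The other kallikreins had higher means in the mutants. Most of these serve the outer skin, where Klk5 and Klk7 cut the proteins that hold dead cells of the horny layer together and Klk8 and Klk6 act beside them. All 13 (Klk4 to Klk15 and Klkb1, the plasma kallikrein) had a probe and 10 were tested. Of the 10, all had higher means in mutant normal skin than in wild type, with a median of 0.42 and 1 called (0.575% of all tested probes were called higher). Klk13 was that 1, not well above background in wild type and between -2.24 and -0.87 in mutant normal skin, at least 4.24-fold higher (limma adjusted p = 0.039). In hair loss skin 3 of 10 were called higher (0.993% of all): Klk7 by 3.29-fold (adjusted p = 0.038), Klk9 by 2.70-fold (adjusted p = 0.038) and Klk13 by at least 9.89-fold (adjusted p = 0.013). These calls were lost with 1 mean for each title number and group: the adjusted p was then 0.46 for Klk13 in mutant normal skin, and 0.21 for Klk7, 0.23 for Klk9 and 0.16 for Klk13 in hair loss skin. They were also lost without either wild type sample, with the hair loss values at 0.18, 0.18 and 0.089 without replicate 1 and 0.066 for each without replicate 2.

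The difference was small for Klk5. It read 4.52 and 5.17 in wild type, 4.98 to 5.33 in mutant normal skin and 5.14 and 5.42 in hair loss skin (difference 0.44 in hair loss skin, adjusted p = 0.33). Klk6 read 1.55 and 1.80 in wild type and 5.60 and 5.07 in hair loss skin, with 1.94 to 4.93 in mutant normal skin, and was 12.6-fold higher in hair loss than in wild type skin without passing the test (adjusted p = 0.082). Between hair loss and mutant normal skin, all 10 had higher means in hair loss skin (median 0.84) and 0 were called. All 8 tested tissue kallikreins had lower means than wild type, but they were chosen for low readings there, so that the contrast with the other kallikreins is a description.

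**Figure D5:**
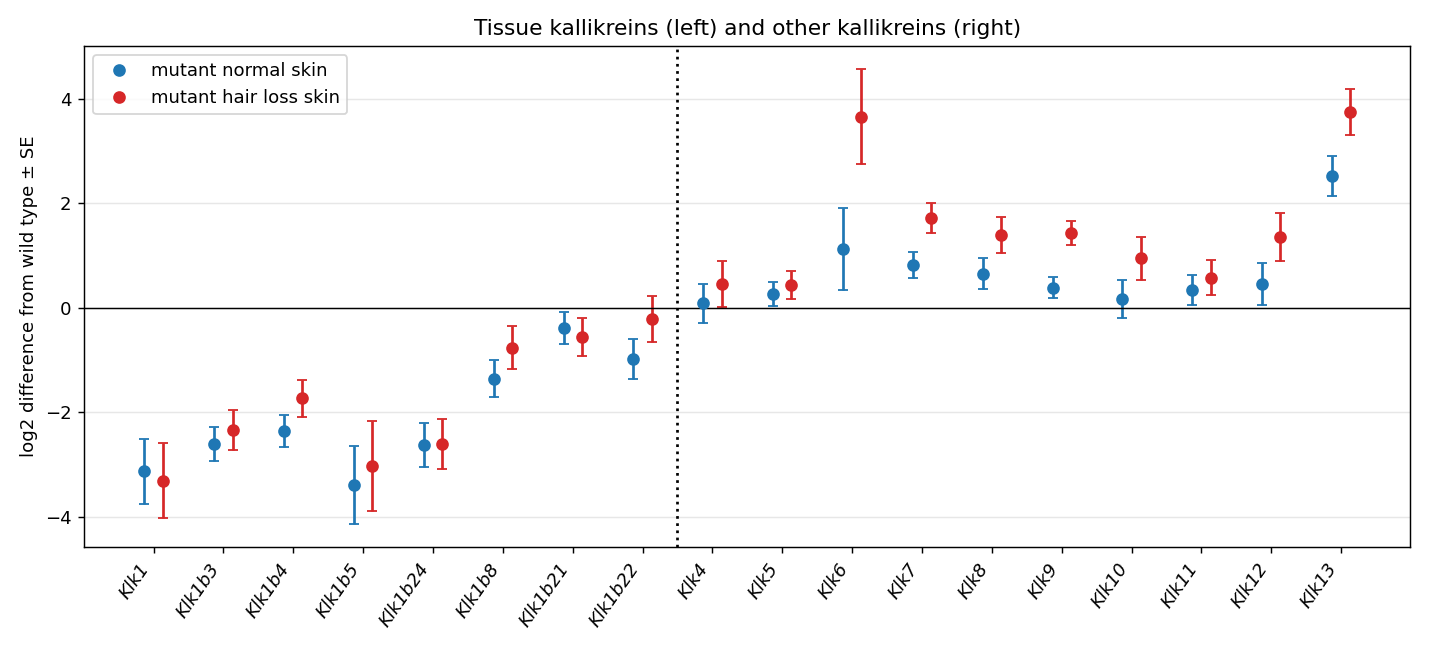
Log2 difference from wild type, with its standard error from the limma fit, for the 8 tested tissue kallikreins (left of the dotted line) and the 10 other tested kallikreins (right), in mutant normal skin (blue) and hair loss skin (red). The tissue kallikreins all lie below 0, down to -3.40, and the others all lie above it, up to 3.75 for Klk13.

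Genes that act with the tissue kallikreins showed 0 calls against wild type in each list. Of 16 kinin system genes 12 were tested, 8 with higher and 4 with lower means in mutant normal skin and 0 called. Kng1, a kininogen and so the substrate of Klk1, was well above background in all samples, at -1.04 and 0.14 in wild type and -0.76 to 0.87 in mutant normal skin. The kinin receptor Bdkrb2 was at background on every array and Bdkrb1 above it on 1 array. Ace, which breaks down kinins, read 2.96 and 2.52 in wild type, 0.90, 1.13, -0.53 and -0.05 in mutant normal skin, then 0.77 and -0.44 in hair loss skin. All mutant samples were below wild type for Ace, and its difference in mutant normal skin was -2.38 (adjusted p = 0.11). Cpm, a carboxypeptidase that trims kinins, lay above wild type in every mutant sample, at 0.55 and 0.96 in wild type and 2.38 to 4.97 in mutant normal skin (difference 2.94, adjusted p = 0.11). Kng1, Ace, Bdkrb1 and Bdkrb2 lie outside the rule for named genes and were added after their values were seen.

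Among growth factors and receptors that Klk1b proteins bind or process, 7 of 8 were tested, and 7 of 7 had lower means in mutant normal skin and in hair loss skin, with 0 called and medians of -0.37 and -0.49. Egfr, the receptor of epidermal growth factor, read 3.28 and 3.31 in wild type and 2.90 to 3.50 in mutant normal skin. A second Egfr probe, picked for its likeness to Klk1b5, was lower in every mutant sample. It read 1.86 and 1.55 in wild type, 0.61 to 1.07 in mutant normal skin, then 1.01 and 0.54 in hair loss skin. Of 12 tested serine protease inhibitors, 8 had higher and 4 lower means and 0 were called. Serpinf1, an inhibitor-like protein without protease-blocking activity, read 7.03 and 6.66 in wild type and 4.87 to 6.36 in mutant normal skin (adjusted p = 0.23). Of the 7 steroid receptor and cofactor genes tested, 1 had a higher and 6 a lower mean, with 0 called. Both tested protease-activated receptors, F2r and F2rl1, had higher means with 0 called.

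Levels of markers of other cell types are given beside these readings. Of 12 salivary and secretory duct markers with a probe, 6 were at background on every array (Smr2, Dcpp1, Dcpp2, Ascl3, Bpifa2 and Prol1), and the summed level of the list was 5.47 to 6.42 times the 75th percentile in wild type, 5.68 to 8.05 in mutant normal skin and 6.78 to 15.7 in hair loss skin. In mutant normal skin 2 of its 5 tested genes had higher and 3 lower means with 0 called, and in hair loss skin 2 were called higher, Aqp5 and Elf5, which skin also expresses (adjusted p = 0.25 and 0.22 with 1 mean for each title number and group). Of 9 exocrine pancreas markers, 6 were at background on every array, and their sum was 1.18 to 1.31 in wild type, 0.796 to 0.943 in mutant normal skin and 0.653 to 0.913 in hair loss skin. Leydig cell and testis markers, with 0 of 7 tested called, summed to 7.03 and 28.1 in wild type, 8.43 to 15.3 in mutant normal skin and 7.06 and 11.8 in hair loss skin.

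Lists of dermal cell types differed in direction. All 6 fibroblast markers had lower means in mutant normal skin, 1 of them called (Dpt, 3.10-fold lower, adjusted p = 0.040, and 0.65 with 1 mean for each title number and group), and the summed level was 1321 to 1874 in wild type, 469 to 1296 in mutant normal skin and 635 to 875 in hair loss skin. All 5 macrophage markers had lower means, with 0 called and sums of 126 to 137, 52.1 to 96.6 and 61.7 to 73.3. All 6 tested mast cell markers had higher means in mutant normal skin, with 0 called there and 1 in hair loss skin, and sums of 35.6 to 38.7 in wild type, 39.4 to 57.7 in mutant normal skin and 40.4 to 114 in hair loss skin. Of 6 adipocyte markers 5 had higher means, with 0 called. Skeletal muscle markers summed to 2027 to 2126 in wild type, 839 to 2027 in mutant normal skin and 335 to 942 in hair loss skin. Of these 10 markers, 9 had lower means in mutant normal skin with 0 called. In hair loss skin all 10 had lower means and 2 were called (0.427% of all tested probes were called lower there).

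Hair shaft markers were far higher in the mutants: all 10 had higher means and 6 were called in mutant normal skin, with sums of 2.52 to 3.63 in wild type, 163 to 1023 in mutant normal skin and 638 to 1859 in hair loss skin. Krt35, a hair keratin above background on 1 of 2 wild type arrays, was 646-fold higher (adjusted p = 0.0037, and 0.44 with 1 mean for each title number and group). Sebaceous gland, adipocyte and epidermal sums differed less, at 133 to 180, 373 to 378 and 1272 to 1334 in wild type beside 145 to 170, 305 to 452 and 1377 to 1724 in mutant normal skin. Of 9 tested sebaceous gland markers, 0 were called in mutant normal skin and 1 was called lower in hair loss skin. The epidermal list was bright on all arrays, as the label of the tissue says. The part of salivary, fibroblast, macrophage, mast cell or muscle RNA or of the hair growth stage in the readings of the tissue kallikreins was not tested.

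Genes with a pattern like that of the members were sought among 4850 genes well above background on all arrays and with a log2 range of at least 1. By the rule chosen (most arrays above background, then highest mean), the reference was Klk1b21, whose reading hardly differed between groups. Its closest patterns by Pearson correlation over the 8 arrays were Synrg (0.95), Kcnh4 (0.94), Nova1 (0.94), Bpifa5 (0.93) and Khsrp (0.93), and the most opposite were Steap4 (-0.94), Cntn1 (-0.92) and Tspan12 (-0.91). Like Klk1b21, each of the genes most alike was highest on the dimmest array (wild type replicate 1) and lowest on the brightest (hair loss replicate 2). Synrg, for example, read 9.55 and 8.35 there. The part of array brightness in this likeness was not tested. Klk1b3 and Klk1b5, which did differ, were added as references after their values were seen. Closest to Klk1b3 were Anp32a (0.97), Gpx3 (0.97), Macrod2 (0.97), Dpep1 (0.97) and Lix1l (0.97). Closest to Klk1b5 were Dpep1 (0.99), Itgbl1 (0.98), Mmp3 (0.97), Egfr (0.97, by the second probe above) and Tmsb10 (0.97). Mmp3, a matrix-degrading protease, read 5.63 and 5.84 in wild type, 4.47, 4.37, 1.99 and 2.32 in mutant normal skin, then 4.18 and 2.85 in hair loss skin. Dpep1, a membrane dipeptidase, read 4.20 and 3.75, then 3.06, 2.71, 2.05 and 2.01, then 2.80 and 2.15 in the same order. Both were picked for their likeness to Klk1b5. Most opposite to Klk1b5 were Flacc1 (-0.95), Kdm6a (-0.93) and Cd1d1 (-0.93). These correlations rest on 8 arrays in 3 groups and are descriptive.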

How the data were processed

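RNA from 8 skin samples was labelled with Cy3 and hybridised to 1 array each, all on 1 slide. Per the file headers, the spot intensity was background-corrected by Agilent Feature Extraction 11.5.1.1 (version per the submitters' processing notes). The deposited matrix holds log2 values of the same signal: a constant for each array brings the 2 within 0.01 for all 55603 probes. Spots marked non-uniform or as outliers (118 to 210 per array) were left out, and 78 probes left without a spot were dropped. Spots of a probe were averaged as log2 of the processed intensity, and the array's 75th percentile was subtracted.

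Of these, 30417 probes, well above background on at least 2 arrays, were tested with limma 3.58.1 (R 4.3.3): 1 model of the 3 groups over all arrays, with 5 residual and 2.71 prior degrees of freedom, another with title number, and another for the letters. Tests were two-sided, with Benjamini-Hochberg adjustment over all probes tested, and a call was an adjusted p under 0.05. The fit was tested on simulated data. Symbols came from a RefSeq table and start site windows from RefSeq (GRCm38.p6). Windows were aligned with Biopython 1.88, ends free.

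All 10 members were named, with at most the 4 brightest genes of each list and any called, and the patterns most alike. A few genes were added after their values were seen, as stated beside them, and results of some listed genes are not reported here. The members and lists were chosen with earlier results of these data known. The alternatives were no or a stricter filter, other background correction and normalization, the deposited matrix, blocks, pooled samples and leaving out each sample. The number of arrays limits the precision. The files name a mm9 design, so probe positions are not given.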

Additional observations from a re-analysis of the deposited data

Results flagged for a closer look

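In mutant normal skin, the group of 4, the sample farthest from the others was checked by its gap over the whole range for 29 kallikrein probes. The critical value was passed by 2 of them, where chance gives about 1 in 20, and by none of the 10 members. Klk6 read 4.93 in mutant normal skin replicate 3, against 1.94 to 2.26 in the other samples of the group. Klk13 read -2.24 in replicate 4, below the others at -1.04 to -0.87.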

How the results depend on the processing

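Counts of called probes moved with the processing. On leaving out 1 sample at a time they ran from 0 to 191 for mutant normal skin against wild type (211 with all samples), 0 to 708 for hair loss against wild type (432), 0 to 11 for hair loss against mutant normal skin (0), 6 to 99 for Mutant113 against Mutant097 (81), 0 to 25 for the difference in lesion effect (0) and 0 to 1 for the letters (0). Against wild type, mutant normal skin gave 10 and 0 without wild type replicates 1 and 2, and 116 and 75 without mutant normal skin replicates 3 and 4. Hair loss skin gave 10 and 0 without the same wild type samples, 2 without hair loss replicate 1, and 708 and 261 without mutant normal skin replicates 3 and 4. Between the numbers, 12, 6 and 8 were called without mutant normal skin replicates 1, 3 and 4. Without the filter, 128 and 183 probes were called for mutant normal and hair loss skin against wild type, and 19 between the numbers. With the stricter filter (every array of a group), 839 were called for hair loss against wild type. With 1 mean for each title number and group, 0 were called in both comparisons with wild type. With slide row as a block the counts were 856 and 1332. This block does not adjust for row alone, because row goes with title number in mutant normal skin. Under it, wild type is set against Mutant113 normal skin alone, and hair loss skin against Mutant097 normal skin alone. With title number as replicate block, hair loss against mutant normal skin still gave 0. Quantile normalization gave 146 for the numbers and 3 for the lesion effect. Normexp on the median signal, an alternative added after the data were seen, gave 465, 287 and 39 for the numbers, the lesion effect and the letters. It stood in for the planned version on the mean signal, which was not run because the columns used here give the median. With Mutant097 alone as mutant normal skin 102 were called, and with Mutant113 alone 514. The causes were not tested.

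All 8 tested members kept a negative difference in mutant normal skin under all 17 alternatives (16 for Klk1b22). The members were chosen on this contrast in these same arrays, so that the kept sign is no independent support. Normexp, which adds an offset, shrank the differences to -1.08 for Klk1, -1.51 for Klk1b5, -1.07 for Klk1b3, -0.64 for Klk1b4 and -0.74 for Klk1b24. In hair loss skin against wild type, Klk1b22 reversed with slide row as a block (0.72) and ran from -0.51 to 0.082 on leaving out 1 sample. Between hair loss and mutant normal skin, Klk1b24 reversed with normexp (-0.040). Reversals also came with slide row as a block for Klk1b24 (-0.41), Klk1b3 (-0.11) and Klk1b5 (-0.58). That block sets hair loss skin against Mutant097 normal skin alone, so that row and title number are not told apart. In the same comparison, leaving out 1 sample gave -0.57 to 0.17 for Klk1 and -0.71 to 0.36 for Klk1b21. It gave -0.55 to 1.28 for Klk1b5 and -0.46 to 0.49 for Klk1b24. Between the numbers, Klk1b22 reversed with normexp (-0.064), and leaving out 1 sample gave -0.26 to 0.16 for Klk1b21 and -0.80 to 0.26 for Klk1b8. Klk1 was called between the numbers with quantile normalization (-1.91, adjusted p = 0.042). By Spearman rho, 2 of the 5 genes most like Klk1b21 stayed. Of those most like Klk1b3 and most like Klk1b5, Dpep1 alone stayed in each case.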
